A study of Mus musculus with 5 samples.

Results

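The genes described here encode the cytosolic HSP70 and HSP110 chaperones and a pair of proteins that work with them: Hspa8, Hsph1, Hspa4, Hspa4l, Hspa1a, Hspa1b, Hspa1l, Hspa2, St13 and Bag3. They are 10 of the 21631 protein-coding genes on the autosomes and X. They were named by family, and a peak was given to one of them when its summit, the position of strongest signal, lay inside the gene or within 10 kb of it on GRCm38. By that rule 1 of the 3316 peaks of the control list and 3 of the 3646 peaks of the NMDA list belonged to these genes. Both lists also hold weak peaks. The authors' q was below 0.05 for 68.94% of the control peaks and 76.3% of the NMDA peaks. Counts, shares and nearest summits here use all listed peaks unless a q is named. The data are HSF1 ChIP-seq from primary cortical neurons, WT, dissociated from Swiss-Webster embryos at embryonic day 16 and cultured to day 13. The control group is 2 ChIP libraries without treatment. The NMDA group is 2 ChIP libraries after 50 µM NMDA, a glutamate receptor agonist, for 10 min and 20 min in medium without it. The single input library used here came from untreated neurons. The authors deposited 1 peak list per condition, which combines its libraries. No value here therefore has a replicate error, a difference between the lists cannot be set against the spread between cultures, and library depth is unknown. Expression was not measured, so the labelled cell type could not be checked against markers.

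HSP70 proteins bind unfolded stretches of other proteins in a cycle driven by ATP. J-domain proteins (HSP40) start the cycle, and nucleotide exchange factors, among them the HSP110 proteins, release ADP and the client. HSC70, the constitutive form, is abundant in neurons, where it also strips clathrin from synaptic vesicles. HSF1 binds DNA as a trimer at heat shock elements, which are inverted repeats of the unit nGAAn, and the stress-inducible HSP70 genes are its textbook targets.

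The only members with a peak in either list were Hspa8, Hsph1 and St13, and only Hsph1 had a peak in both lists. Of these genes only Hsph1 has a promoter window, so only its sequences could be set beside its peaks. Both of its peaks cover the element matches marked in capitals. The sequences come from RefSeq promoter windows on GRCm38.p6, which run from 250 bases before an annotated start to 50 bases after it. The NMDA peak covers the whole Hsph1 window, and the control peak covers 135 of its 300 bp. Capitals mark stretches that match the 3-unit element GAANNTTCNNGAA, or TTCNNGAANNTTC on the other strand, in at least 8 of its 9 fixed bases. The run after the start is cut to 30 bases, and there the capitals mark the full match alone. The Hspa1a window is shown beside them because this gene is a textbook target without a peak in either list.
Hsph1 before the start (chr5:149636337-149636586, minus strand): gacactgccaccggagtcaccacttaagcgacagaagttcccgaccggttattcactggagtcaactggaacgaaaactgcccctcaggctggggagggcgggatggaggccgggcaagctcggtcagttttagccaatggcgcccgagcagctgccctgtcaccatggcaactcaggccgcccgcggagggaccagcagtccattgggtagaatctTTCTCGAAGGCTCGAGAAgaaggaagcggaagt
Hsph1 after the start (chr5:149636280-149636309, minus strand): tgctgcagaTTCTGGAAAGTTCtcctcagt
Hspa1a before the start (chr17:34972157-34972406, minus strand): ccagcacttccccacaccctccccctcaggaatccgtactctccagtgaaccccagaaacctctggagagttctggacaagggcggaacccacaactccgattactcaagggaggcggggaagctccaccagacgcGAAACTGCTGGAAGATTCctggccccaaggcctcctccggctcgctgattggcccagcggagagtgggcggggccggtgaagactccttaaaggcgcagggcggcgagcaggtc

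Counted over all 10 genes, 1 (10.0%) had a control peak and 3 (30.0%) had an NMDA peak within 10 kb. By the same rule 10.3% of all protein-coding genes had a control peak and 9.41% had an NMDA peak. A peak in the NMDA list alone was found at 2 members, Hspa8 and St13, against 6.68% of all protein-coding genes, and a peak in both lists at 1 member, against 2.72%. The control share of the members is near its background. The NMDA share is above its own, but it rests on 3 genes of a family chosen with earlier results in view, and it was not tested.

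Hspa8 encodes HSC70, the constitutive HSP70 of the cytosol (chromosome 9, 40801276 to 40805202). It had no control peak, and the nearest control summit lay 158 kb away inside Jhy, at 2.57-fold. In the NMDA list it had 1 peak at 40800968 to 40801513, 546 bp wide, with 15.4-fold enrichment. Fold enrichment is the authors' ratio of ChIP signal to background at the summit. The summit lay 68 bp outside the annotated end at the lower coordinate, so the peak covers that end of the gene. This fold was the fourth highest of the NMDA list and 5.72 times the median of that list, and the authors' −log10 q was 114.3. Hspa8 thus went from no listed peak to one of the top sites. The promoter table used here has no entry for Hspa8.

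Hsph1 encodes HSP105, an HSP110 protein that acts as a nucleotide exchange factor for HSP70 (chromosome 5, 149616843 to 149636498). Its control peak, at 149635593 to 149636421, had 3.39-fold enrichment, rank 80 of 3316, and a −log10 q of 4.39. Its NMDA peak, at 149635722 to 149636902, had 15.3-fold enrichment, rank 5 of 3646, and a −log10 q of 113.1. The site was therefore listed in both conditions, far higher in the order of the NMDA list. Divided by the median of its own list, the control fold was 1.27 and the NMDA fold was 5.68. The peaks overlapped by 700 bp, which is 84.4% of the control peak and 59.3% of the NMDA peak, and their summits were 65 bp apart. The NMDA fold was 4.51 times the control fold, a ratio of values that each list scales by its own libraries. Both peaks were broad. The control peak was 829 bp wide, the 18th widest of its list (median 316 bp), and the NMDA peak was 1181 bp wide, the third widest of its list (median 303 bp).

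St13 encodes HIP, a cochaperone that keeps HSP70 in its ADP-bound, client-holding state (chromosome 15, 81365044 to 81399694). It had no control peak, and the nearest control summit lay 222 kb away inside Ep300, at 3.15-fold. Its NMDA peak, at 81399357 to 81400312, was 956 bp wide with 14.8-fold enrichment, rank 6 of its list. The −log10 q was 127.6, the highest of the 3 NMDA peaks at members, although its fold was the lowest of them. The summit lay 124 bp outside St13, in the stretch between St13 and Xpnpep3, which encodes an aminopeptidase. The nearer end of Xpnpep3 was 287 bp from the summit and its annotated start in the promoter table was 320 bp away. The peak covers the end of St13 and all 300 bp of the Xpnpep3 promoter window, so it cannot be given to one gene of the pair from these data. St13 has no entry in the promoter table. In the Xpnpep3 window the best match to the 3-unit element was 6 of 9 fixed bases, as in 48.3% of all promoter windows. The summit lies 70 bp outside this window, and the sequence there was not read.

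**Figure D1:**
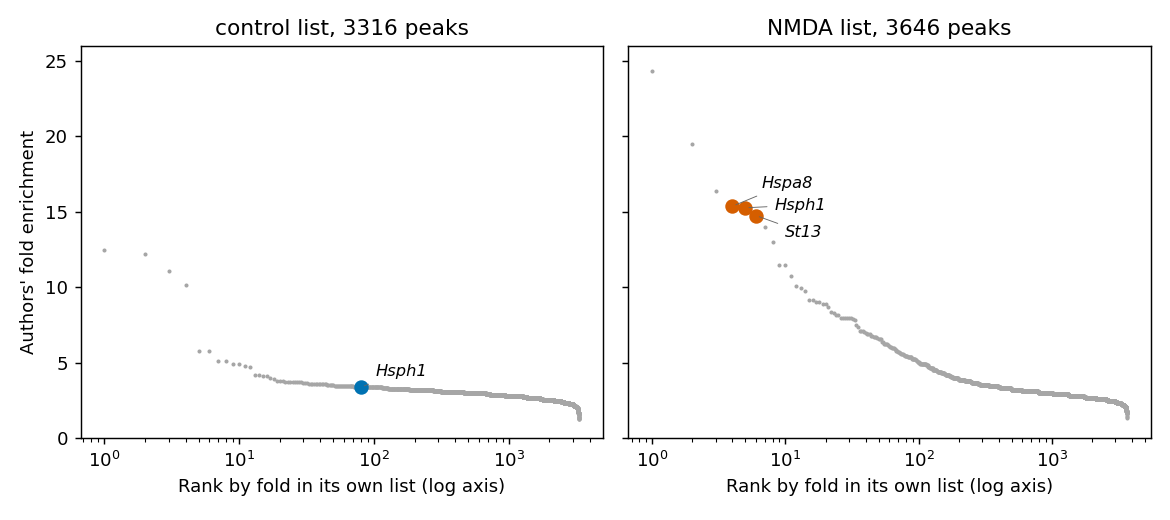
The authors' fold enrichment of each peak (vertical axis) is plotted against its rank in its own list (horizontal log axis), with peaks at member genes as large coloured points and all others in grey. The 3 NMDA peaks lie side by side at ranks 4 to 6, between 14.8-fold and 15.4-fold, while the control peak of Hsph1 lies at rank 80 with 3.39-fold.

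The 3 NMDA peaks were close to each other in fold and stood next to each other in the order of the list. The position of the summits differed. At Hspa8 and St13 the summit was just outside the annotated gene. At Hsph1 the NMDA summit was 165 bp inside the outermost annotated end, and the control summit was 230 bp inside it. RefSeq gives more than 1 start for Hsph1, and the NMDA summit was 3 bp after one of them, at 149636336. Exon and intron are not stated, because the gene table used here holds no exons.

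**Figure D2:**
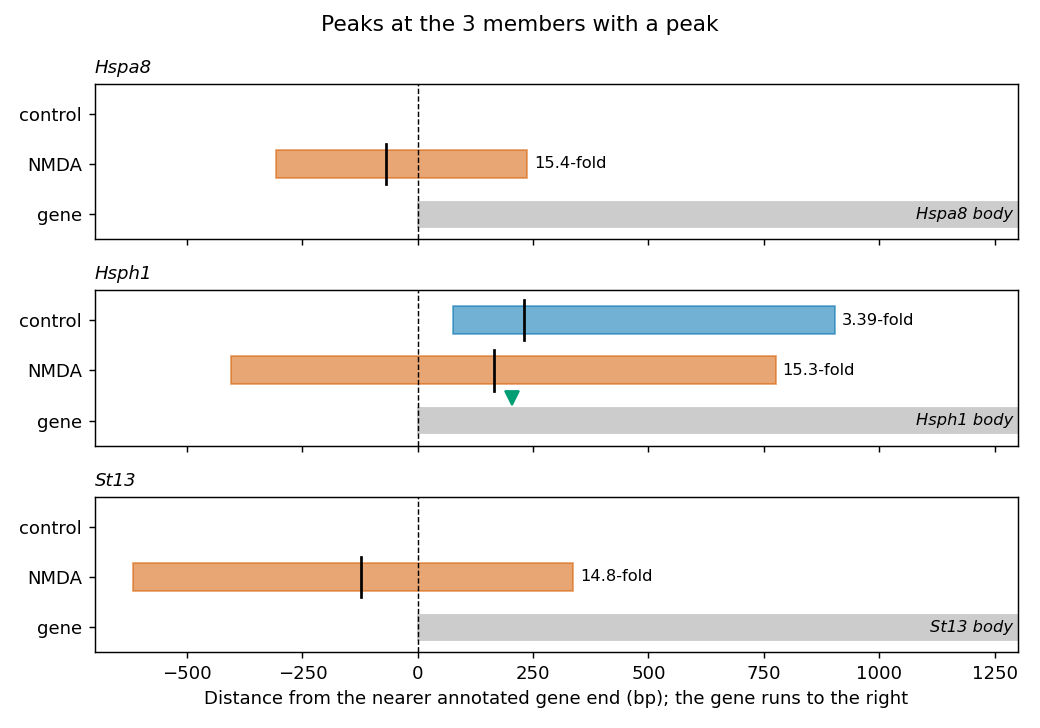
Peaks are drawn as bars by their distance in bp from the nearer annotated gene end (dashed line), with the gene body in grey to the right, summits as black ticks and the fold beside each bar. Hspa8 and St13 have an NMDA bar across the gene end and no control bar, while Hsph1 has overlapping bars of both lists, and the green triangle marks its full 3-unit element.

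The heat shock element matches of Hsph1 fell into 2 stretches, counted from the start at 149636336. The stretch before the start, TTCTCGAAGGCTCGAGAA, runs from 33 to 16 bp before it and holds a pair of overlapping matches with 8 of 9 fixed bases. The stretch after the start, GCAGATTCTGGAAAGTTC, runs from 31 to 48 bp after it and holds the full match TTCTGGAAAGTTC and an overlapping one with 8 of 9. The NMDA summit lay between the stretches, 19 bp from the one before the start and 28 bp from the one after it. The control summit lay on the far side of the second, 20 bp from it and 84 bp from the other.

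A full 3-unit match is rare among promoter windows. It was found in 198 of 32851 windows of 300 bp (0.603%), and at least 8 of 9 bases were found in 2372 (7.22%). Some genes have several overlapping windows, and both patterns were searched, which are each other's reverse complement. Of the 107 windows that held an NMDA summit 13 (12.1%) had a full match, and of the 123 that held a control summit 6 (4.88%) had one. The NMDA share includes both overlapping Hsph1 windows, which hold the same full match. The control share includes only the window of the other Hsph1 start, because the control summit lies outside the window printed above. Neither share was tested.

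Hsph1 was the only one of the 8 members with a promoter entry that had a full match. With 8 of 9 bases there were 3 members, which adds the near-identical Hspa1a and Hspa1b. In both of these the capitals GAAACTGCTGGAAGATTC hold a pair of overlapping matches, centred 108 and 103 bp before the start. The best match was 7 of 9 in Hspa4, Hspa1l and Bag3, 6 of 9 in Hspa2 and 5 of 9 in Hspa4l. A best match of 7 or more was found in 47.0% of all windows. Letters like these are a description of the window and not a measure of binding. The shorter 2-unit patterns GAANNTTC and TTCNNGAA, which are also contained in the 3-unit one, were found in full in 4 members, Hsph1, Hspa1a, Hspa1b and Bag3, and in 15.1% of all windows.

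**Figure D3:**
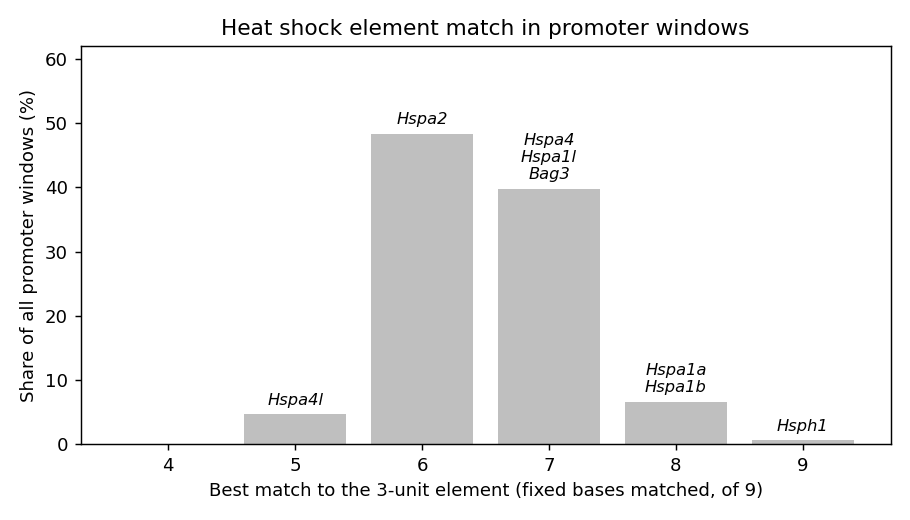
Grey bars give the share of all promoter windows (vertical axis, %) by their best match to the 3-unit element (horizontal axis, fixed bases of 9), and the names stand at the value of each member with an entry. Hsph1 stands at 9, a value that 0.603% of windows reach, and Hspa1a and Hspa1b stand at 8.

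The other HSP110 genes had no peak within 10 kb in either list. Hspa4 encodes APG-2, a nucleotide exchange factor of HSC70 (chromosome 11, 53259814 to 53300479). Its nearest control summit was 267 kb away inside Kif3a (2.19-fold), and its nearest NMDA summit was also 267 kb away, on the other side, inside Fstl4 (4.16-fold). These distances are near the medians over all protein-coding genes, 257 kb for control summits and 278 kb for NMDA summits. Hspa4l encodes APG-1 (chromosome 3, 40744500 to 40796103). Its nearest summits were 187 kb away (control, 2.31-fold) and 69.3 kb away (NMDA, 2.37-fold), both below the median fold of their lists. Within the HSP110 family a listed peak was thus found at 1 of 3 genes in each condition, the same gene. The shares of all protein-coding genes were 10.3% (control) and 9.41% (NMDA).

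Hspa1a and Hspa1b encode the stress-inducible HSP70 of the cytosol, and Hspa1l encodes a form found mainly in male germ cells. They lie together on chromosome 17, from 34956429 to 34979228 (22.8 kb). None of the 3 had a peak in either list. The nearest summits were 1089, 1102 and 1082 kb from Hspa1a, Hspa1b and Hspa1l in the control list, at 1 peak of 2.57-fold. In the NMDA list they were 1060, 1047 and 1063 kb away, at 1 peak of 2.22-fold inside Daxx. These genes were among the more remote ones in both lists. As far or farther from a control summit as Hspa1b were 13.7% of protein-coding genes, and 16.2% were as far or farther from an NMDA summit.

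The stretch around the cluster held no summit of either list from 33909799 to 36061058, which is 2.15 Mb. It holds 128 protein-coding genes in full. Among the 6929 intervals between neighbouring autosomal summits of both lists pooled it was the 46th longest (median 0.210 Mb). In the lists taken alone the intervals were 2.24 Mb (control, 181st of 3290) and 2.15 Mb (NMDA, 168th of 3620). The stretch was set by the summits on either side of the cluster, so no gene held in full can contain a summit. Its length and rank are a description, and a regional cause of the missing peaks was not tested.

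Hspa1a and Hspa1b are near-identical copies, so a read from one may place equally well on the other. Their promoter windows were identical at 296 of 300 aligned positions (98.7%), with a longest identical run of 201 bp. Those of Hspa1a and Hspa1l, which start 547 bp apart on opposite strands, were identical at 44.1% of aligned positions. The authors' treatment of reads that place equally well at several positions was not given in the sources used here, and its part in the missing peaks was not tested.

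Hspa2 encodes an HSP70 best known from spermatogenesis (chromosome 12, 76403812 to 76406938). It had no peak within 10 kb, but it was the member just outside that distance, with an NMDA summit 16.3 kb away inside Zbtb1, at 2.58-fold and a −log10 q of 1.40. Its nearest control summit was 960 kb away. Bag3, whose product is an exchange factor that directs HSP70 clients to autophagy (chromosome 7, 128523583 to 128546981), had its nearest control summit at 25.9 kb (2.98-fold) and its nearest NMDA summit at 65.3 kb inside Inpp5f (2.31-fold). Bag3 thus lay closer to a control summit than to an NMDA summit, and both are outside the distance set. Hspa8 and St13 lay far within that distance, 68 and 124 bp from an NMDA summit, so no member lay between 124 bp and 16.3 kb.

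**Figure D4:**
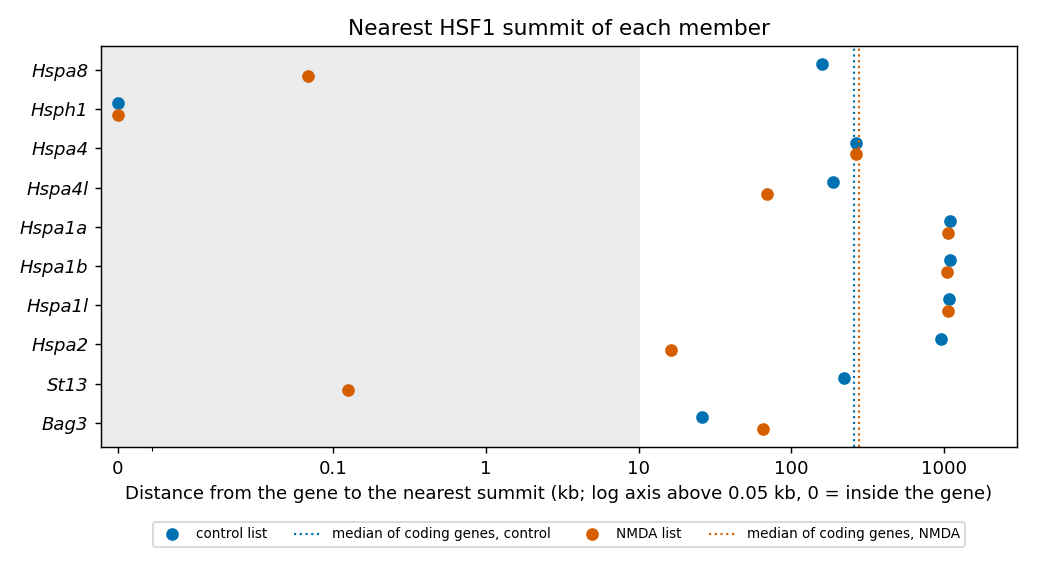
The distance in kb from each member to its nearest summit is plotted for the control list (blue) and the NMDA list (orange) on an axis that is logarithmic above 0.05 kb, with the 10 kb rule in grey and the medians of all protein-coding genes as dotted lines. The NMDA points of Hspa8, Hsph1 and St13 lie at the left. Of their control points only that of Hsph1 does, and those of Hspa8 and St13 lie at 158 and 222 kb. Hspa1a, Hspa1b and Hspa1l lie beyond 1000 kb in both lists.

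Set by role, the constitutive HSC70 and HSP110 genes had a control peak at 1 of 4 and an NMDA peak at 2 of 4. The stress-inducible HSP70 genes and the cochaperones had a control peak at 0 of 4 and an NMDA peak at 1 of 4, St13. The inducible HSP70 genes alone had 0 of 2 in both lists, and so had the remaining HSP70 genes Hspa1l and Hspa2. By the same rule 10.3% of all protein-coding genes had a control peak and 9.41% had an NMDA peak. Groups of this size allow no test of a difference between roles. The 3 listed NMDA sites were HSC70, 1 HSP110 gene and the site at St13. Neither copy of the inducible gene was listed after NMDA, which also holds for most protein-coding genes.

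The other genes of the HSP70 system were taken as 29 genes in 4 classes, by the same rule. Of these, 5 (17.2%) had a control peak and 10 (34.5%) had an NMDA peak, with 4 in both lists, 6 in the NMDA list alone, 1 in the control list alone and 18 in neither. These shares stand against the same 10.3% and 9.41% of all protein-coding genes. The 29 genes were chosen with earlier results in view, and the difference was not tested. Folds were well below those of the 3 members. The highest NMDA fold was 6.63 and the median over the genes with an NMDA peak was 2.93. The highest control fold was 2.88 and the median was 2.57.

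Among the J-domain partners, 4 of 8 had an NMDA peak and 2 of 8 a control peak. The shares of all protein-coding genes were 9.41% (NMDA) and 10.3% (control). Dnaja1, a cytosolic HSP40 gene, had the highest NMDA fold of the class, 6.63-fold at rank 49, with the summit 220 bp outside the gene, and no control peak. Dnajb1, the HSP40 gene that is a classical heat shock target, had overlapping peaks of 2.88-fold (control) and 2.69-fold (NMDA). Dnajb1 differs from Hsph1 in that its fold was not higher after NMDA. Dnajb5 had a control peak of 2.88-fold and an NMDA peak of 3.12-fold that do not overlap. Their summits lay 3646 bp (control) and 6569 bp (NMDA) outside the gene. Dnajb4 had a 2.72-fold NMDA peak inside the gene.

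Among the genes classed as HSP90 or ubiquitin partners, 3 of 5 had an NMDA peak and 1 of 5 a control peak. Over all protein-coding genes the shares were 9.41% (NMDA) and 10.3% (control). Chordc1, an HSP90 cochaperone gene, had 4.87-fold (rank 114) and Stip1, which encodes HOP, the adaptor that joins HSP70 to HSP90, had 3.98-fold (rank 195). Ttc4 had a 2.26-fold peak 5146 bp away, with a −log10 q of 0.729, so above a q of 0.05. Stub1, which encodes the ubiquitin ligase CHIP, had a peak in the control list alone, at 2.36-fold and a −log10 q of 0.948.

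Among the nucleotide exchange factors, 2 of 9 had an NMDA peak and 1 of 9 a control peak. These counts stand beside 9.41% (NMDA) and 10.3% (control) of all protein-coding genes. The genes with an NMDA peak were Sil1 (2.96-fold for the higher of 2 peaks) and Bag2 (2.90-fold, 5807 bp away). Sil1 also had the control peak (2.46-fold, above a q of 0.05). None of the Sil1 peaks overlapped a peak of the other list. Of the 7 HSP70 paralogs of other compartments or divergent type, 1 had peaks. That gene, Hspa9, encodes the mitochondrial HSP70. Its control peak (2.57-fold, 4876 bp away) and NMDA peak (2.62-fold, 363 bp away) do not overlap. Hspa5, which encodes the HSP70 of the endoplasmic reticulum, and Hyou1, its HSP110 partner there, had none.

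**Figure D5:**
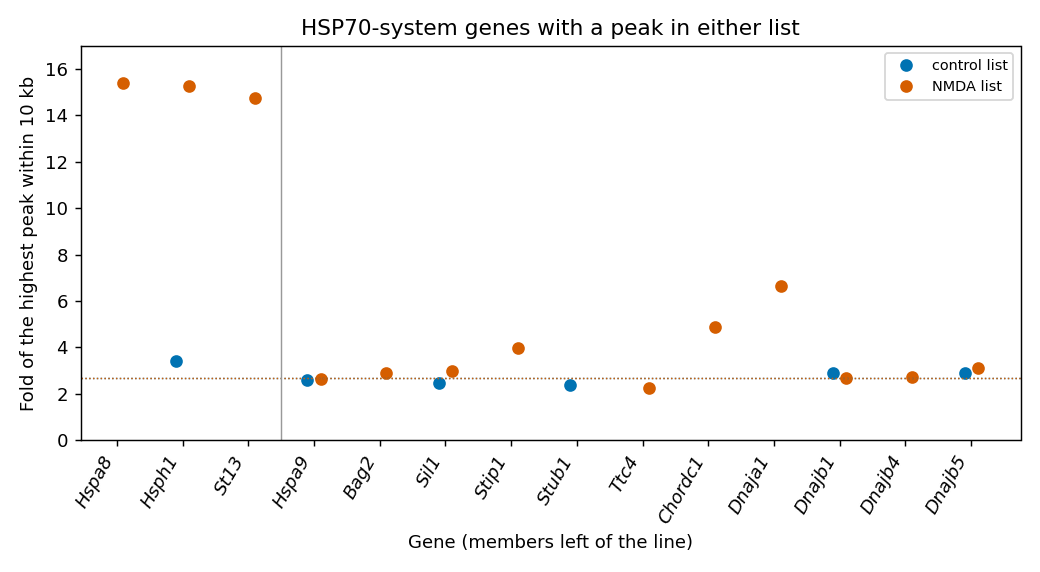
The fold of the highest peak within 10 kb is plotted for every HSP70-system gene with a peak in either list, members to the left of the vertical line, with the list medians as dotted lines. The 3 NMDA values of the members lie near 15, while the other genes lie between 2.26-fold and 6.63-fold in the NMDA list.

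Genes with the pattern most like that of the members were found by rank, over 2 lists. For Hspa8 and St13, which had no control peak, 1122 other genes had an NMDA summit inside the gene or within 1000 bp and none in the control list. The nearest in NMDA rank were Xpnpep3, through the peak it shares with St13, Cep57l1 (24.3-fold, rank 1) and Ksr2 (10.8-fold, rank 11). For Hsph1, 469 other genes had such a summit in both lists. The smallest sums of differences in percentile rank were 2.08 for Hspd1 and Hspe1, which share 1 site (control 4.21-fold, NMDA 13.98-fold), and 2.49 for Top2b. The highest peaks of Top2b had 12.4-fold (control, rank 1) and 11.5-fold (NMDA, rank 9). Unlike at Hsph1, its fold was not higher after NMDA, so the likeness is in percentile rank only.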

How the data were processed

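HSF1 ChIP-seq peaks of control and NMDA-treated neurons were used as the authors deposited them, in 1 list per condition. Per the submitters' processing notes, the tools were FastQC, Trimmomatic, BWA, SAMtools and MACS2, with no version, and the build was mm10 (GRCm38.p6). The way libraries were combined was not given in the sources used here. Deposited with each peak by the authors, the values are a fold enrichment (a ratio), the −log10 of a peak p and of a q, a display score and the summit offset. The scale of a list depends on its own libraries, which limits any comparison of fold between them, and depth is unknown.

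Gene positions and promoter windows came from RefSeq tables of GRCm38.p6, a C57BL/6J assembly, and all 10 members matched by symbol, 8 of them with promoter windows. Python 3.11.15 with pandas 2.3.3 and Biopython 1.88 was used. Overlap meant at least 1 bp. Gene assignment and motif search were tested on simulated data. No statistical test was made, since no list separates its replicates. Named genes were all members, the listed HSP70-system genes with a peak, genes next to member peaks, and the 3 genes nearest in rank to Hspa8, Hsph1 and St13. Members and gene lists were chosen with earlier results of these data known.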

Additional observations from a re-analysis of the deposited data

How the results depend on the processing

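Of 26 alternative counts 18 stayed within 1.5 times the reported count. Control members with a peak numbered 2 with a window of 50 kb, which adds Bag3, and 0 among peaks of at least 4-fold, which drops Hsph1. By these settings 19.01% and 0.0462% of all protein-coding genes had a control peak. NMDA members numbered 1, Hsph1, when the summit had to lie inside the gene, and the other windows and peak filters gave 3 or 4. The NMDA share of all protein-coding genes was 6.565% inside the gene and 17.57% with a window of 50 kb. It was 1.932% within 1 kb of a gene end and 0.578% among peaks of at least 4-fold. Other HSP70-system genes within 1 kb of a gene end numbered 2 (control) and 6 (NMDA) of 29, and with q below 0.05 the control number was 3. The control shares of all protein-coding genes were 2.547% within 1 kb of a gene end and 7.614% with q below 0.05. With q below 0.05 the NMDA share was 7.522%. The Hsph1 ratio of NMDA to control fold was 4.48 over the list medians and 4.03 over the 90th percentiles. Heat shock elements were found in 3 member promoters with 1 mismatch and in 4 with 2 units. These changes follow from how each alternative is built. Single replicates could not be left out, since a list merges its libraries. No paired analysis was possible because replicates are merged in both lists. With depth unknown, HSF1 may be present where no peak is listed.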
